A study of Mus musculus with 7 samples.

Results

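Antifolate and thiopurine response genes are a set of 8 genes that act on methotrexate and on mercaptopurine and thioguanine, drugs long used against acute lymphoblastic leukaemia. They were chosen by name, with earlier results of these data known. All 8 (Slc19a1, Fpgs, Ggh, Tyms, Shmt1, Tpmt, Nt5c2 and Mtap) matched 1 of the 24726 gene entries in each table of TPM, a level corrected for gene length and library depth. The libraries hold polyadenylated RNA of 5 C57BL/6 mouse leukaemias of the B-cell type, B-ALL. The 3 Pax5-Etv6 B-ALL samples have the genotype Cdkn2ab+/-Pax5Etv6/+, in which 1 Pax5 allele is the Pax5-Etv6 fusion and 1 Cdkn2a-Cdkn2b copy is missing, and are whole lymph node taken directly from the animal. The 2 control B-ALL samples have the genotype Trp53-/- NrasG12D/+ with retroviral Myc and are whole bone marrow after a short culture. No cells were sorted, no drug treatment is named, and genotype, tissue and culture change together, so their effects cannot be told apart. The labels call the 3 Pax5-Etv6 libraries strand-specific and leave that field blank for the controls. Library type may therefore differ by group as well. Whether the libraries of a group are separate animals is not in the labels; the spread behind each p-value may therefore be technical.

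Methotrexate enters cells through the reduced folate carrier Slc19a1, is kept there by the glutamate chain that Fpgs adds and Ggh removes, and blocks the use of folate, the carrier of the carbon units needed for thymidylate and purine synthesis. Thiopurines are turned into thioguanine nucleotides by the purine salvage enzyme Hprt. Tpmt inactivates them by methylation, and Nt5c2 removes the phosphate from purine nucleotides, including those of thiopurines. Mtap recovers adenine and methionine from methylthioadenosine, and its gene lies beside Cdkn2a, with which it is often deleted in human cancers.

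Nt5c2, Slc19a1, Shmt1 and Ggh were lower in Pax5-Etv6 B-ALL than in control B-ALL, by 3.73-fold, 2.71-fold, 1.57-fold and 6.56-fold in mean TPM. Tyms, Fpgs, Tpmt and Mtap were not called, and no member was higher, whether by limma's adjusted p, at an unadjusted p under 0.05 (0 of 8) or by voom on recovered reads (0 of 8). A gene is called here at a Benjamini-Hochberg adjusted p under 0.05 in limma's test on log2(TPM + 1), adjusted over 11805 genes. Of those, 2588 were called higher and 3511 lower (21.9% and 29.7%, together 51.7%), so 4 of 8 members called in either direction is near the share among all genes. Ggh passed the filter on low values through the control samples alone, so it had to be higher in those to be tested at all. In the same 4 members the groups did not overlap, a separation seen in 72.2% of all genes. Without control replicate 1, 1410 genes were called higher and 1954 lower. The median log2 fold change over all genes was -0.11.

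**Figure D1:**
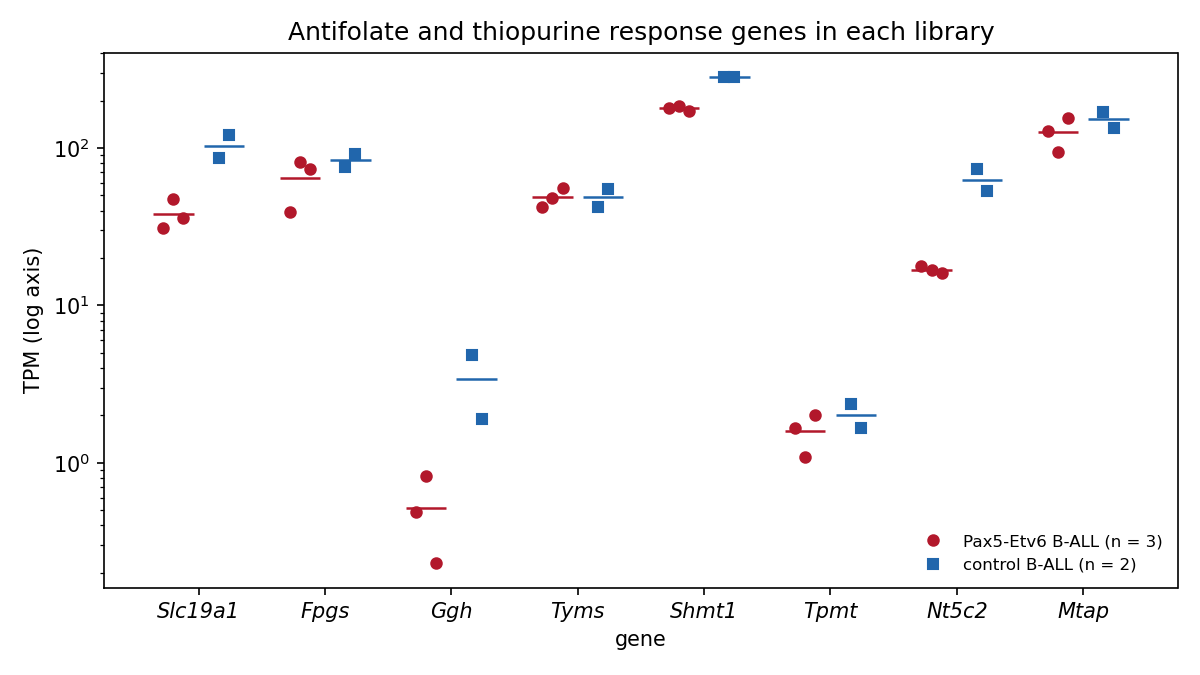
TPM (log axis) of the 8 genes in each of the 3 Pax5-Etv6 B-ALL libraries (red circles) and 2 control B-ALL libraries (blue squares), with horizontal bars at the group means. The groups are apart for Slc19a1, Ggh, Shmt1 and Nt5c2 and overlap for Fpgs, Tyms, Tpmt and Mtap.

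The genotypes were visible in the levels of Trp53, at least 454 TPM in Pax5-Etv6 and at most 20.5 TPM in control B-ALL, and of Myc, at most 387 and at least 1544 TPM. Recovered reads, a lower bound on depth, ran from 20110584 to 50994548 per library. B-cell markers were present in all libraries, and they summed to 6703 to 7957 TPM in Pax5-Etv6 and 2455 to 3384 TPM in control B-ALL. Of these markers 4 of 8 were called higher in Pax5-Etv6 B-ALL, beside 21.9% of all genes tested. Genes marking other cells were called higher in that group too: 5 of 5 tested T-cell genes (summed 242 to 690 against 18.9 to 37.4 TPM), 6 of 9 macrophage genes (178 to 595 against 21.5 to 70.0 TPM), 8 of 8 neutrophil genes (31.2 to 253 against 0.339 to 0.547 TPM), 6 of 8 stromal and endothelial genes (314 to 1000.3 against 80.5 to 92.0 TPM) and 2 of 3 erythroid genes (14.9 to 85.0 against 0.750 to 1.10 TPM). Of the tested genes, 8 of 8 neutrophil, 3 of 3 erythroid, 3 of 5 T-cell, 4 of 8 stromal and endothelial and 1 of 9 macrophage genes passed the filter through the Pax5-Etv6 libraries alone and so had to be higher there, and these counts support nothing by themselves. The T-cell sum was mostly Lck and Zap70. Trac, the constant part of the T-cell receptor alpha chain, had 4.47, 0.800 and 2.59 TPM against 0.233 and 0 TPM and Cd5 had 2.10, 4.52 and 5.94 TPM against 0.232 and 0.592 TPM, both called higher, while Cd3d, Cd3e, Cd3g and Cd8a did not exceed 0.64 TPM in any library. Cd4 and S100a8 were at 0 in both controls. Pecam1 made up most of the stromal and endothelial sum in both controls, at 76.9 and 79.9 TPM. It had 233, 222 and 293 TPM in Pax5-Etv6 B-ALL and was called higher. Cdh5 of the same list was not called, at 0.533, 8.45 and 3.14 TPM against 2.26 and 3.87 TPM. The part of these cells in the values of the members was not tested, and in whole tissue fewer cells of a type and less RNA per cell cannot be told apart.

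The order of the members by mean TPM had the same genes at its ends in both groups. Shmt1 and Mtap ranked 1 and 2 in both groups. In Pax5-Etv6 B-ALL the next were Fpgs, Tyms and Slc19a1, whose ranges overlapped (39.4 to 80.9, 42.4 to 55.4 and 30.9 to 47.5 TPM), and then Nt5c2. In control B-ALL Slc19a1 and Fpgs held ranks 3 and 4. Nt5c2 (53.0 to 73.0 TPM) overlapped Tyms (42.2 to 55.2 TPM) at ranks 5 and 6. Within a library, Slc19a1 was above Fpgs in both controls (85.9 against 76.0 and 120 against 91.6 TPM). Slc19a1 was below Fpgs in all 3 Pax5-Etv6 libraries (30.9 against 39.4, 47.5 against 80.9 and 35.8 against 73.3 TPM). Tpmt and Ggh were the lowest members in both groups. Tpmt was above Ggh in every Pax5-Etv6 library and below it in both controls (2.35 against 4.86 and 1.66 against 1.91 TPM). In Pax5-Etv6 replicate 2 and control replicate 2 the counting intervals of these genes (95% exact Poisson) overlapped.

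Of the genes that handle methotrexate itself, the carrier fell and the enzyme that adds glutamate was not called. Slc19a1 stood at 30.9, 47.5 and 35.8 TPM in Pax5-Etv6 replicates 1, 2 and 3 and at 85.9 and 120 TPM in control replicates 1 and 2. Every Pax5-Etv6 library was below both controls (38.1 ± 8.57 against 103 ± 24.2 TPM, SD, n = 3 and 2). On the log2(TPM + 1) scale, which understates changes of low genes, the fold change was -1.42 ± 0.25 (SE, limma adjusted p = 0.00473), and it stayed called in every setting run (0.0035 to 0.0272). Fpgs, whose deposited name carries a tag that reads as overlap, had 39.4, 80.9 and 73.3 TPM against 76.0 and 91.6 TPM. The groups overlapped, since Pax5-Etv6 replicate 2 lay above control replicate 1, and replicate 1 was well below the rest. Its fold change of -0.43 had a 95% confidence interval of -1.20 to 0.34 (adjusted p = 0.292), and without Pax5-Etv6 replicate 1 it was -0.11 (adjusted p = 0.634, where all settings spanned 0.169 to 0.634).

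Ggh, the lysosomal hydrolase that trims the glutamate chain, was near the limit of detection in Pax5-Etv6 B-ALL. It stood at 0.487, 0.830 and 0.230 TPM, for which the smallest whole numbers of reads were 7, 10 and 4, against 4.86 and 1.91 TPM, with 134 and 31 reads. All 3 Pax5-Etv6 values were under both controls, although the counting interval of replicate 2 (0.398 to 1.53 TPM, 95% exact Poisson) reached that of control replicate 2 (1.30 to 2.71 TPM). Such intervals take these smallest read numbers as the counts and cover counting error only. The fold change was -1.46 ± 0.40 (limma adjusted p = 0.0223), but the call was lost without Pax5-Etv6 replicate 3 (adjusted p = 0.0591, where all settings that gave a value spanned 0.0194 to 0.0591). Without either control the gene no longer passed the filter. The size of its fold change depended on the pseudocount, at -2.48 with 0.1 TPM, -0.58 with 5 TPM and -2.67 with voom on recovered reads, and it was called in each of these. The ratio of Fpgs to Ggh within a library, which does not depend on library scaling, was 80.9, 97.4 and 319 in Pax5-Etv6 B-ALL and 15.7 and 48.0 in control B-ALL. On the log2 scale the ratio was higher by 2.31 in Pax5-Etv6 B-ALL (7.09 ± 1.07 against 4.78 ± 1.14, SD, n = 3 and 2). The two-sided exact permutation p was 0.1, the smallest that 3 against 2 libraries can give. With 1 TPM added to both genes the difference was 1.03 and the exact p was 0.3.

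Among folate-dependent enzymes of the cytosol, Shmt1 fell and Tyms was not called. Shmt1, which moves a carbon unit from serine to folate, had 180, 186 and 172 TPM in Pax5-Etv6 B-ALL and 281 and 280 TPM in control B-ALL. Libraries within each group lay close together (179 ± 7.20 and 281 ± 0.334 TPM), and the fold change of -0.64 ± 0.13 was the smallest of the 4 called members (adjusted p = 0.00721, limma). It stayed called in every setting run (0.00668 to 0.0343). Tyms, which makes thymidylate and is blocked by polyglutamated antifolates, stood at 42.4, 48.0 and 55.4 TPM against 42.2 and 55.2 TPM. The control values spanned nearly the whole range of the Pax5-Etv6 values. Its fold change was 0.00 with a 95% confidence interval of -0.48 to 0.49 (adjusted p = 0.996), so differences within that interval were not excluded, and its sign turned without Pax5-Etv6 replicate 3 (-0.10) or control replicate 1 (-0.19).

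**Figure D2:**
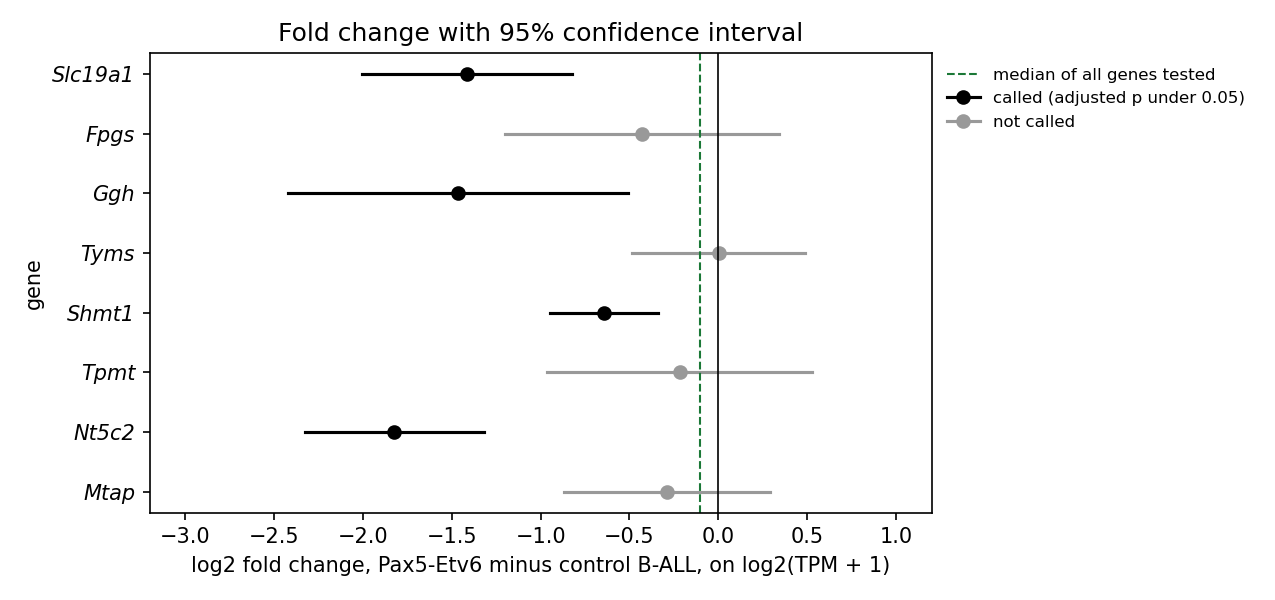
Log2 fold change (Pax5-Etv6 minus control B-ALL, on log2(TPM + 1)) of each gene with its 95% confidence interval from limma. Black marks called genes and grey those not called, and the dashed line is the median of all genes tested, -0.11. The intervals of Slc19a1, Ggh, Shmt1 and Nt5c2 lie wholly below 0.

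The control leukaemias carry a retroviral Myc, and Myc with its partner Max is known to bind the E-box CACGTG. The start-site windows of the members were searched for those letters. RefSeq windows (GRCm38.p6) of 250 bases before to 50 bases after a start were found for 7 members, 14 windows in all. Ggh had none in the table. The palindrome CACGTG occurred in 2 of the 14 windows, against 7.15% of all 32851 windows. The single Tyms window held it, beginning 61 bases before the start, as did 1 of the 7 Nt5c2 windows, beginning 194 bases before. None of the 14 windows held TTTGGCGC or TTTCCCGC, letters bound by E2F factors, on either strand (0.514% and 1.07% of all windows). The 250 bases before the start are shown 5′ to 3′ for a member that was not called and holds the letters (Tyms, chr5:30073626-30073875, minus strand), for the Nt5c2 window that holds them (chr19:46969569-46969818, minus strand), and for a called member without them (Shmt1, chr11:60811266-60811515, minus strand), with CACGTG in capitals:
Tyms: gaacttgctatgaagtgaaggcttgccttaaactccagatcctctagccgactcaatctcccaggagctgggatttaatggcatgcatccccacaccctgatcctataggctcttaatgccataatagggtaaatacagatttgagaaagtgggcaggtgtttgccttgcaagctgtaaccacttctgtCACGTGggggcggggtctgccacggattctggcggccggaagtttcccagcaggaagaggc
Nt5c2: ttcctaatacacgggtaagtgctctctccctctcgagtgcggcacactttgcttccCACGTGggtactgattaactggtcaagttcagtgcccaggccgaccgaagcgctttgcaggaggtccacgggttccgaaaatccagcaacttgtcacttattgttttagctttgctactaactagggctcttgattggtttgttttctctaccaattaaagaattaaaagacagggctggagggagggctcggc
Shmt1: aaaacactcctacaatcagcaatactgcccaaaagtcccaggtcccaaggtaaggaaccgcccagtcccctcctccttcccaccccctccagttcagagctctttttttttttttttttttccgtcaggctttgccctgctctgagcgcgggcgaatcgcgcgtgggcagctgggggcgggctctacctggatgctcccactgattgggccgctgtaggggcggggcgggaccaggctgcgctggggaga
A match of letters is a description and not a measured binding site. Of these 2 genes with the letters, Nt5c2 was called lower in Pax5-Etv6 B-ALL and Tyms was not called.

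Of the thiopurine genes, Nt5c2 fell and Tpmt was low in every library. Nt5c2, whose activating mutations are known from relapsed lymphoblastic leukaemia, stood at 17.8, 16.7 and 16.1 TPM against 73.0 and 53.0 TPM. The 3 Pax5-Etv6 libraries lay close together and far below both controls (16.9 ± 0.835 against 63.0 ± 14.1 TPM). The fold change of -1.82 ± 0.21 had the lowest adjusted p of the 8 members (0.00128, limma), and the call held in every setting run (0.000977 to 0.0112). Its name carries the overlap tag, and reads shared with a neighbouring gene were not tested. Only the Pax5-Etv6 libraries are labelled strand-specific, and the part of library type in these values was not tested either. Tpmt had 1.67, 1.09 and 2.02 TPM against 2.35 and 1.66 TPM, from 27 to 133 recovered reads. The groups overlapped, and the fold change of -0.22 had an interval of -0.96 to 0.53 (adjusted p = 0.576).

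Mtap was not called, while its neighbour Cdkn2a fell. Mtap stood at 128, 93.9 and 155 TPM in Pax5-Etv6 B-ALL and at 170 and 133 TPM in control B-ALL. The groups overlapped, with Pax5-Etv6 replicate 3 above control replicate 2 (126 ± 30.8 against 152 ± 26.2 TPM). The fold change was -0.29, with an interval of -0.87 to 0.29 (adjusted p = 0.346). Cdkn2a, which encodes the cell-cycle inhibitors p16Ink4a and p19Arf and is the next protein-coding gene, is the locus of which the Pax5-Etv6 genotype lacks 1 copy. It had 15.0, 53.0 and 18.4 TPM against 426 and 558 TPM (-4.25 ± 0.51, adjusted p = 0.00143). Within a library Mtap was 8.51, 1.77 and 8.44 times Cdkn2a in Pax5-Etv6 B-ALL, and 0.400 and 0.239 times in control B-ALL. Every Pax5-Etv6 library thus had more Mtap than Cdkn2a, and both controls had less. Cdkn2b, beyond Cdkn2a, had 0.0663, 7.03 and 0 TPM against 1.73 and 3.11 TPM, with replicate 2 above both controls (adjusted p = 0.542, not called). Without Pax5-Etv6 replicate 2 it was called lower (-1.70, adjusted p = 0.0112, the lowest of a range up to 0.88).

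Other genes of this stretch of chromosome 4, ordered as in RefSeq's GRCm38.p6 annotation, went both ways. Some are not close neighbours. Counted in protein-coding genes from Mtap, Klhl9 is at -23, Focad at -35 and Mllt3 at -36, where Cdkn2a is at 1. Klhl9 was lower (-0.98 ± 0.22, limma adjusted p = 0.0125), a call lost without control replicate 1 (0.0793, within a range from 0.0105). Focad was lower too (-1.35 ± 0.23, adjusted p = 0.0043). Mllt3, the partner of many MLL fusions, was higher at 14.0, 16.2 and 18.2 against 9.06 and 8.43 TPM (0.81 ± 0.23, adjusted p = 0.0277). It was no longer called without Pax5-Etv6 replicate 2 (0.104) or 3 (0.094), without control replicate 1 (0.072) or 2 (0.0738) and with no filter (0.0524), within a range from 0.00588. Ifne, next to Mtap on the other side, was listed at 0 in all 5 libraries, and Dmrta1 and Elavl2 did not exceed 0.14 TPM.

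**Figure D3:**
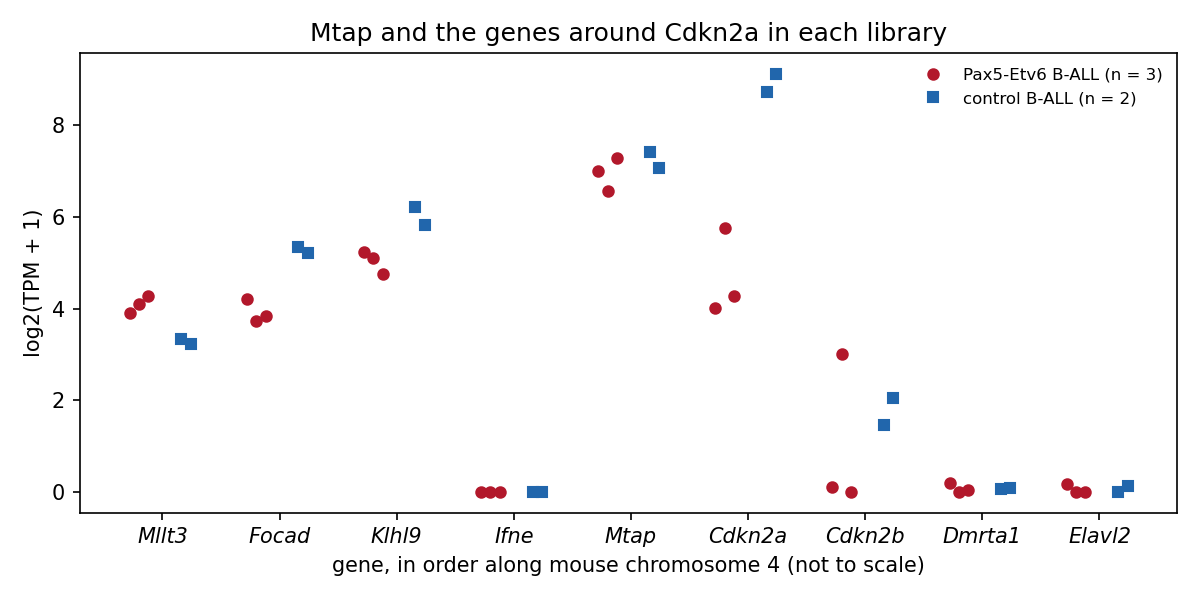
log2(TPM + 1) of Mtap and of the listed genes around Cdkn2a, in their order along mouse chromosome 4 and not to scale, for 3 Pax5-Etv6 B-ALL (red circles) and 2 control B-ALL libraries (blue squares). Many genes that lie between Mllt3, Focad, Klhl9 and Mtap are not drawn. Mtap is at a like height in both groups, beside Cdkn2a, which had 15.0 to 53.0 TPM against 426 and 558 TPM.

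Over 8 lists of folate, nucleotide, thiopurine, methylthioadenosine and mismatch repair genes, 53 of 91 distinct genes tested were lower and 8 higher (median log2 fold change -0.78), beside 29.7% lower, 21.9% higher and a median of -0.11 over all genes. The lists were chosen with earlier results of these data known, so their counts are a description and not independent support. In the folate one-carbon cycle 10 of 16 genes tested fell and none rose (median -0.91), with 0 higher at an unadjusted p under 0.05 and 0 by voom. Mthfd2l, a mitochondrial folate dehydrogenase, had 0.617, 0.245 and 0.782 TPM against 14.1 and 10.6 TPM (-3.11 ± 0.31, limma adjusted p = 0.00088), and passed the filter through the controls alone. It was -1.64 with a pseudocount of 5 TPM. Gcsh, a protein of the glycine cleavage system, had 34.8, 38.9 and 39.8 TPM against 197 and 143 TPM (-2.12 ± 0.19, adjusted p = 0.000651). Slc25a32, the mitochondrial folate carrier, had 8.68, 9.61 and 8.57 TPM against 48.8 and 29.1 TPM (-1.96 ± 0.28, adjusted p = 0.00237). In Gcsh and Slc25a32, named for large fold changes among called genes, each control was above every Pax5-Etv6 library. The groups did not overlap in 72.2% of all genes tested. Mthfd2l had to be higher in the controls to be tested.

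Other folate carriers and drug efflux pumps included 5 lower genes of 9 tested and none higher (median -0.93), with 2 higher at an unadjusted p under 0.05 (Abcc3 and Folr2) and 1 by voom. Export of antifolates was not measured. Slc46a1, counted as lower, passed the filter through the controls alone, and Abcc3, which was not called, passed it through the Pax5-Etv6 libraries alone. The number lower was 2 without control replicate 1 and 3 without control replicate 2, and 1 gene was higher without Pax5-Etv6 replicate 1. Abcb1b, a P-glycoprotein, stood at 5.29, 5.65 and 5.46 TPM against 36.4 and 30.5 TPM (-2.41 ± 0.23, limma adjusted p = 0.000765). Abcc1 was at 0.498, 5.32 and 3.20 TPM against 14.7 and 24.9 TPM (-2.56 ± 0.63, limma adjusted p = 0.0154). Its call was lost without control replicate 1 (0.0685) or 2 (0.104), within a range from 0.00564. Abcg2 was at 1.41, 2.78 and 4.96 TPM against 16.6 and 9.51 TPM (-1.84 ± 0.46, limma adjusted p = 0.0161), a call lost without control replicate 1 (0.132) and with no filter (0.0503), within a range from 0.0127. In all 3 pumps the groups did not overlap, a separation seen in 72.2% of all genes tested. The folate receptor Folr2, known from macrophages, had 1.79, 7.33 and 4.09 TPM against 0.756 and 1.36 TPM (1.27, adjusted p = 0.0696, not called). It was called without Pax5-Etv6 replicate 1 (0.00939) and with quantile normalization (0.0487), within a range up to 0.302. Summed macrophage markers were likewise highest in Pax5-Etv6 replicate 2 (595 TPM, beside 178 and 216 TPM in replicates 1 and 3), and their part in the Folr2 value was not tested.

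**Figure D4:**
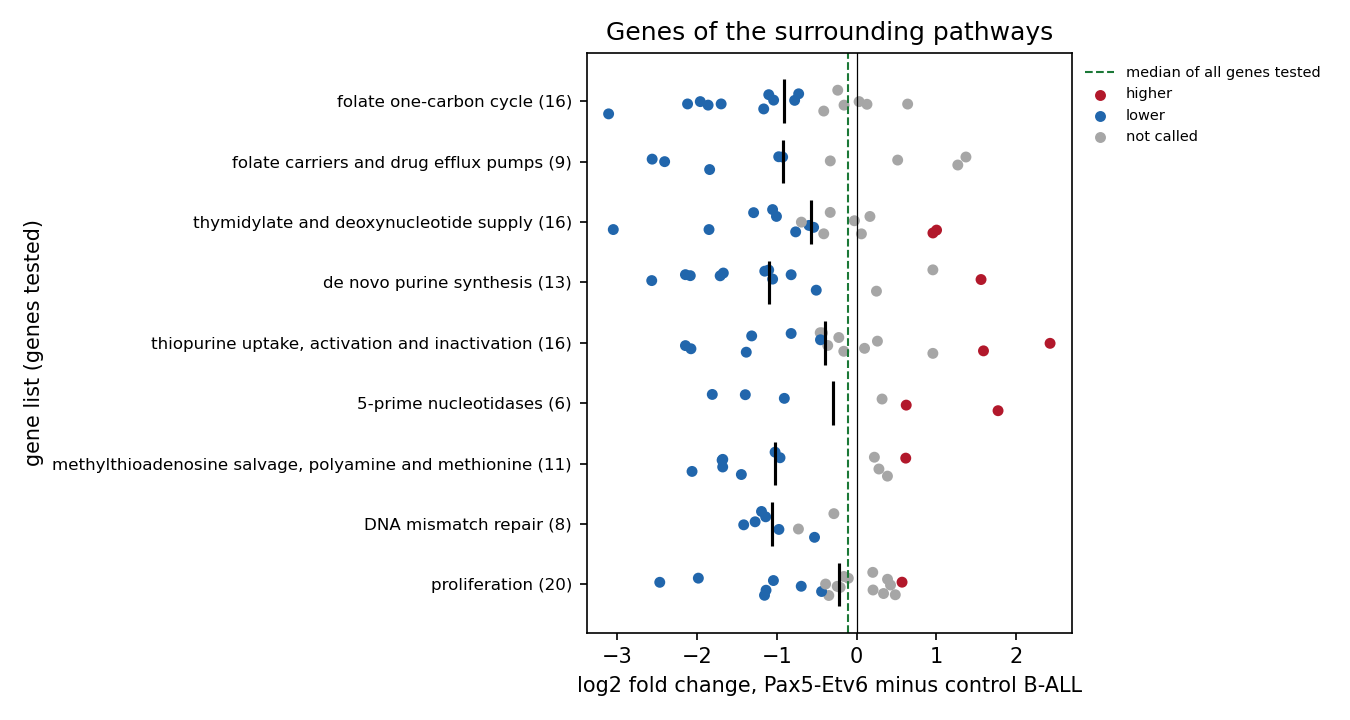
Log2 fold change (Pax5-Etv6 minus control B-ALL) of each tested gene in 9 lists, with the number tested in brackets, black ticks at list medians and a dashed line at the median of all genes tested, -0.11. Points called lower (blue) outnumber those called higher (red) in every list, from 3 against 2 among the nucleotidases to 10 against 0 in the folate cycle. The same holds over all genes tested, with 3511 lower against 2588 higher.

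Of 16 thymidylate and deoxynucleotide genes tested 8 fell, 2 rose and 6 were not called (median -0.57). Without control replicate 1, 5 fell. The 2 that rose were thymidine kinases. Dctd, which makes the dUMP that Tyms uses, had 8.39, 1.27 and 6.47 TPM against 47.5 and 40.6 TPM (-3.05 ± 0.60, limma adjusted p = 0.00748), a call lost without control replicate 1 (0.0688, in a span of 0.00296 to 0.0688). Ctps, the CTP synthase, fell by 1.85 in log2 units (adjusted p = 0.00443), and Cad, which starts pyrimidine synthesis and carries the overlap tag, fell by 1.29 (adjusted p = 0.0031). The cytosolic thymidine kinase Tk1, also tagged, stood at 234, 380 and 373 TPM against 144 and 188 TPM (0.96 ± 0.25, limma adjusted p = 0.0206). Its mitochondrial counterpart Tk2 stood at 19.4, 31.2 and 30.5 TPM against 11.5 and 14.1 TPM (1.00 ± 0.28, limma adjusted p = 0.0238). Both were above the controls in all 3 Pax5-Etv6 libraries, where 72.2% of all genes tested had groups that did not overlap. The Tk1 call was lost without Pax5-Etv6 replicate 2 (0.0517) or 3 (0.0581) or control replicate 1 (0.142), within a range from 0.00353. The Tk2 call was lost without Pax5-Etv6 replicate 2 (0.0869) or 3 (0.0738) or control replicate 1 (0.123) or 2 (0.0517), within a range from 0.00678. Beside 29.7% lower and 21.9% higher over all genes tested, 7 of 20 proliferation genes were lower, 1 higher and 12 not called (median -0.22). Without control replicate 1 these were 4 lower and 0 higher, and the number higher ranged from 0 to 4 over the libraries left out.

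In de novo purine synthesis 10 of 13 genes tested fell and 1 rose (median -1.10). Ppat, the committed step, whose name is tagged, had 46.9, 47.0 and 40.3 TPM against 321 and 227 TPM (-2.57 ± 0.19, limma adjusted p = 0.000508). Gmps, the GMP synthetase that also completes thioguanine nucleotides, had 24.2, 24.8 and 21.5 TPM against 127 and 91.0 TPM (-2.15 ± 0.20, adjusted p = 0.000745). Prps2, which supplies the ribose phosphate donor, fell by 2.09 (adjusted p = 0.00246). In these genes, named for their large fold changes, both controls were above all Pax5-Etv6 libraries. The groups did not overlap in 72.2% of all genes tested. The exception was Adssl1, an adenylosuccinate synthase, at 54.6, 88.6 and 73.5 TPM against 20.7 and 26.3 TPM (1.56 ± 0.25, limma adjusted p = 0.00347). Without Pax5-Etv6 replicate 1 or control replicate 2 the number higher was 2.

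Of 16 thiopurine uptake, activation and inactivation genes tested, 6 fell, 2 rose and 8 were not called (median -0.39). These shares were 37.5% lower and 12.5% higher, beside 29.7% and 21.9% over all genes tested. Hprt, the enzyme that activates thiopurines, stood at 175, 161 and 139 TPM against 526 and 295 TPM (-1.32 ± 0.26, limma adjusted p = 0.00734). Its groups did not overlap, as in 72.2% of all genes tested. The nucleoside transporter Slc29a2 fell by 2.08 (adjusted p = 0.002), and Itpa, which clears inosine triphosphates and their thio forms, fell by 1.38 (adjusted p = 0.00176). Pnp, the purine nucleoside phosphorylase, was higher at 116, 97.3 and 133 TPM against 30.9 and 45.0 TPM (1.59 ± 0.22, limma adjusted p = 0.0023). Xdh, which oxidises mercaptopurine to an inactive product, had 8.39, 3.22 and 5.42 TPM against 0.0629 and 0.303 TPM (2.43 ± 0.40, adjusted p = 0.00404). It passed the filter through the Pax5-Etv6 libraries alone, and its fold change was 4.39 with a pseudocount of 0.1 TPM, 1.01 with 5 TPM and 5.42 with voom.

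The relatives of Nt5c2 split by member. Among all genes tested, 29.7% were lower and 21.9% higher. Of 6 nucleotidases tested 3 fell and 2 rose (median -0.29), and 1 rose without Pax5-Etv6 replicate 2 or 3 or control replicate 1. Nt5c3, which prefers pyrimidine nucleotides, had 20.0, 17.1 and 14.8 TPM against 74.1 and 53.1 TPM (-1.81 ± 0.23, limma adjusted p = 0.0018), close to the levels of Nt5c2 in each library. Nt5dc3 had 5.06, 4.09 and 5.52 TPM against 14.8 and 14.0 TPM and fell as well (adjusted p = 0.00558). Nt5dc2, which is tagged, fell by 0.91 (adjusted p = 0.0301), a call lost without Pax5-Etv6 replicate 3 (0.0539) or control replicate 2 (0.162), with no filter (0.0655) and with no trend (0.0506), within a range from 0.0199. The cytosolic deoxynucleotidase Nt5c, tagged as well, was higher at 393, 379 and 390 TPM against 97.0 and 130 TPM (1.78 ± 0.16, limma adjusted p = 0.00072). Its mitochondrial relative Nt5m was higher by 0.62 ± 0.18 (adjusted p = 0.0279), a call lost without Pax5-Etv6 replicate 2 (0.113) or 3 (0.101) or control replicate 1 (0.0879), within a range from 0.00976.

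Around Mtap's own reaction, 7 of 11 methylthioadenosine, polyamine and methionine genes tested were lower and 1 higher (median -1.02). Odc1, the first enzyme of polyamine synthesis, had 83.1, 87.4 and 67.8 TPM against 349 and 319 TPM (-2.06 ± 0.16, limma adjusted p = 0.000545). Mat2a, which makes S-adenosylmethionine and is tagged, fell by 1.69 (adjusted p = 0.00147), and Enoph1 of the salvage route fell by 1.68 (adjusted p = 0.000754). Prmt5, the methyltransferase that methylthioadenosine inhibits, had 143, 155 and 148 TPM against 268 and 314 TPM (-0.96 ± 0.14, adjusted p = 0.00257). Every control value of these genes, named for their fold changes or after their values were seen, exceeded every Pax5-Etv6 value. The groups did not overlap in 72.2% of all genes tested. Apip, the salvage enzyme that was higher (0.62 ± 0.20, adjusted p = 0.0383), lost its call without Pax5-Etv6 replicate 2 (0.159) or 3 (0.0926) or control replicate 1 (0.0534) or 2 (0.123), within a range from 0.0168. No gene of the list was higher without Pax5-Etv6 replicate 2 or 3 or control replicate 1.

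Mismatch repair, which recognises thioguanine in DNA, had 6 of 8 genes lower and none higher (median -1.06), with 0 higher at an unadjusted p under 0.05 and 0 by voom. Pms2 had 28.8, 29.7 and 35.2 TPM against 82.9 and 86.6 TPM (-1.42 ± 0.17, limma adjusted p = 0.00143). Pms1 fell by 1.27 (adjusted p = 0.00712), and the tagged Msh3 fell by 1.19 (adjusted p = 0.00507). Msh6, also tagged, had 72.0, 83.0 and 86.0 TPM against 162 and 155 TPM (-0.97 ± 0.15, adjusted p = 0.00294). In each of these 4 genes, named for their fold changes or after their values were seen, both controls lay above all Pax5-Etv6 libraries. The groups did not overlap in 72.2% of all genes tested.

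Among tested genes outside the lists, the one whose profile over the 5 libraries was closest to that of Nt5c2 was Nifk (Euclidean distance 0.0642 between centred log2(TPM + 1) profiles), at 74.2, 69.5 and 67.1 TPM against 280 and 215 TPM. For Slc19a1 it was Cdk2ap1 (distance 0.183), at 16.9, 22.8 and 18.9 TPM against 43.8 and 57.7 TPM. For Tyms it was Tjap1 (distance 0.0672), at 58.3, 69.7 and 78.4 TPM against 61.3 and 79.7 TPM. The nearest to the others were Zcchc24 (Fpgs), Orc4 (Ggh), Aqp11 (Shmt1), Fam84b (Tpmt) and D4Ertd617e (Mtap). Aqp11 was under 1 TPM in every Pax5-Etv6 library and had 1.31 and 1.24 TPM in the controls. It passed the filter through the controls alone and so had to be higher there. D4Ertd617e had 0.688, 0.273 and 1.14 TPM against 1.13 and 0.812 TPM. The matches of Aqp11 and D4Ertd617e thus rest on low values, whose changes the log2(TPM + 1) scale understates. The same 5 libraries underlie each of these comparisons.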

How the data were processed

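Values are TPM, per the file headers, in 5 deposited tables, 1 per library, each covering 24726 gene entries and scaled by the authors to 1 common total. The submitters' processing notes list mm9, HTSeq 0.5.3 and DESeq2 1.4.1 without roles. For the aligner and gene annotation, names were not given in the sources used here. Of the entries, 3539 carry a name tag that reads as overlap, and its meaning is not given. The labels call the 3 Pax5-Etv6 libraries strand-specific and leave that field blank for the controls. The 2 chromatin immunoprecipitation samples were not analysed here.

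Names were matched after removing suffixes that start with _IMP or _ENSMUSG. The filter kept genes that reached 1 TPM in 2 or more libraries. Their log2(TPM + 1) values went into limma 3.58.1 (R 4.3.3), two-sided and with a trend, which leaves 3 residual degrees of freedom and no covariate. The fit was also run on simulated data with normally distributed noise and few changed genes. That setting is unlike these data, so it checks the code and not the calls given here. Whole reads were recovered from the TPM values for 16538 of 16538 entries above 0 in at least 2 libraries (100%, tolerance 1e-06) and are lower bounds. A voom fit on them called 3070 genes higher and 3289 lower. Replicates were numbered in accession order.

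The members and lists were chosen with earlier results of these data known. Named genes were the members, the genotype genes, the Cdkn2a neighbourhood, up to 3 called genes per list and direction with the largest fold change and 10 TPM or more in the mean of the higher group, and each member's nearest profile. Folr2, Hprt, Xdh, Prmt5 and Msh6 were added after their values were seen. Some genes of the lists are not reported here by name. The other settings used a pseudocount of 0.1 or 5 TPM, no filter or one of 5 TPM, median-of-ratios and quantile scaling, no trend and each library left out. The voom fit and a fit without tagged entries were chosen after seeing the data.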

Additional observations from a re-analysis of the deposited data

How the results depend on the processing

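Nt5c2, Slc19a1 and Shmt1 kept their direction and call in every alternative that tested them (Nt5c2 is not in the fit without tagged entries), with each library left out ranging from -2.05 to -1.60, -1.66 to -1.18 and -0.67 to -0.61. Ggh ranged from -1.61 to -1.32 and was not called without Pax5-Etv6 replicate 3 (-1.32, the cause was not tested); it was -2.48 with a pseudocount of 0.1 TPM, -0.58 with 5 TPM and -2.67 with voom, called in each, and gave no value with a filter of 5 TPM or without either control, where fewer libraries reach the filter. Tyms ranged from -0.19 to 0.19, Fpgs from -0.62 to -0.11, Tpmt from -0.39 to -0.05 and Mtap from -0.46 to -0.09, none called. The Fpgs to Ggh difference ranged from 1.503 to 3.12 and was 1.03 with 1 TPM added, since Ggh is under 1 TPM in Pax5-Etv6 B-ALL. Pax5, not called anywhere, changed sign from -0.03 to 0.0383 with median-of-ratios scaling, 0.0784 with quantile normalization and 0.08 with voom, and ranged from -0.20 to 0.13 with a library left out. With a library left out, genes called ranged from 3364 to 6334 in all, 1410 to 2984 higher and 1954 to 3350 lower. Counts lower ranged from 2 to 5 for carriers and pumps, 5 to 9 for thymidylate and 4 to 6 for proliferation genes. Counts higher ranged from 0 to 1 for carriers, the chromosome 4 neighbourhood and methylthioadenosine genes, 0 to 2 for thymidylate, 1 to 2 for purine synthesis and for nucleotidases, and 0 to 4 for proliferation genes. Carriers had 1 higher gene (0 before) with a pseudocount of 0.1 TPM, quantile normalization or voom. Without tagged entries thymidylate genes and nucleotidases each had 1 higher gene (2 before). With no filter the neighbourhood and proliferation genes had 0 higher (1 before each); proliferation genes had 0 with no trend and 3 with median-of-ratios scaling or voom. The causes were not tested. The median of all genes moved by 0.11 with voom, against which fold changes in that fit are to be read; with no filter it moved by 0.10 because more genes entered it (18048 against 11805), and member fold changes stayed the same. With a pseudocount of 5 TPM, Abcc1 (-1.65), Abcg2 (-1.16) and Slc29a2 (-1.26), which are low in Pax5-Etv6 B-ALL, were smaller and still called. Where a control was left out, the lone control was assumed to vary like the other group. No paired analysis was run because the labels pair no library of one group with a library of the other. Ggh and Tpmt are under 5 TPM in all libraries, and their few recovered reads limit their precision.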
